A study of Mus musculus with 2 samples.

Results

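The genes described here are the cytoplasmic ribosomal protein genes, which encode the protein parts of the ribosomes that work outside mitochondria. They were chosen by symbol: Rpl or Rps followed by a number, with Rpsa, Rplp0, Rplp1 and Rplp2, without pseudogenes or the Rps6k kinases, and with at least 200 unique molecular identifiers (UMIs) in each section. Of the 32285 genes in the files, 83 matched by name and 80 had enough UMIs, 48 of the large (Rpl) and 32 of the small (Rps) subunit. The lowest member, Rpl7l1, had 2732 UMIs in section 1 and 2489 in section 2. Of the 3 matching genes left out, Rpl3l had 33 and 31 UMIs, Rpl39l had 15 and 21, and Rpl10l had 0 and 1. All 80 members passed the filter on low counts and were tested.

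Gene expression was measured with 10x Visium, which captures polyadenylated RNA of a tissue slice on barcoded spots, so that 1 spot usually mixes RNA of neighbouring cells of more than 1 type. The samples were 2 fresh-frozen sections of brain, 10 µm thick, from wild-type C57BL/6 mice, an inbred strain. Both are labelled ZT12, commonly zeitgeber time counted from lights on, and the labels name no treatment, transgene or age. They form 1 group, replicates 1 and 2, called sections 1 and 2 here, and the study's stated interest is how brain regions differ. Whether 1 animal or more gave the sections is not stated in the labels. The p-values therefore reflect only how far differences between regions disagreed between these sections, pooled over regions, which may be technical.

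A ribosome joins a small subunit, which reads the messenger RNA, to a large subunit, which forms the peptide bond and holds the exit tunnel of the new protein. Most of its proteins are present in a single copy, and their messenger RNAs are known as terminal oligopyrimidine (TOP) messages, since they begin with a run of pyrimidines through which translation is adjusted to nutrients and growth signals. A few members have a paralog made from a gene of its own, among them Rpl22l1 beside Rpl22 and Rps27l beside Rps27, and in brain these messages are found both in cell bodies and in the processes of neurons and glia.

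The 80 genes lie on 19 chromosomes, and RefSeq on GRCm38.p6 gave a promoter for 60 of them. The 6 letters CTTCCG, searched on both strands from 250 bases before to 50 bases after the start, stood in 41 of the 60 promoters (68.3%) and in 17.2% of all 27025 promoters. A pyrimidine motif (CTTTC, or the letters CTTCC, or else CTCTT) was searched within 25 bases either side of the start. The strand searched was the sense strand, which reads like the RNA. Such a motif stood in 31 of the 60 promoters (51.7%) and in 20.9% of all promoters. These motifs can overlap each other and CTTCCG. Shown next are 100 bases before to 20 bases after the start of 7 members: the paralog pairs of Rpl22 and Rps27, Rpl10 and Rplp0, whose levels left the common course of the genes, and Rps21, whose share of the total was the most even. The windows are Rpl22l1 at chr3:28805408-28805527 on the plus strand, Rpl22 at chr4:152325626-152325745 on the plus strand, Rps27l at chr9:66945986-66946105 on the plus strand, Rps27 at chr3:90213629-90213748 on the minus strand, Rpl10 at chrX:74270716-74270835 on the plus strand, Rplp0 at chr5:115559367-115559486 on the plus strand and Rps21 at chr2:180257279-180257398 on the plus strand. Capitals mark CTTCCG or its reverse complement CGGAAG, and the pyrimidine motifs where they stood near the start. Of these 7 genes, CTTCCG was found in Rps27l, Rps27, Rpl10 and Rps21, in Rpl10 outside the printed window, and a pyrimidine motif near the start in Rpl22l1 and Rps27.
Rpl22l1: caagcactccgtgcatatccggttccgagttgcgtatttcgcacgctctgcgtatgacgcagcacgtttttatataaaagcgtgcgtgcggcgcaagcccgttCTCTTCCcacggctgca
Rpl22: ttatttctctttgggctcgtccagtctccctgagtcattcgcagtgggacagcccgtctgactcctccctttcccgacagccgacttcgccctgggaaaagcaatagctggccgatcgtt
Rps27l: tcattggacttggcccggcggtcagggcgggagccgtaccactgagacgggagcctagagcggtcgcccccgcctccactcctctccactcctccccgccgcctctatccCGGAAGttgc
Rps27: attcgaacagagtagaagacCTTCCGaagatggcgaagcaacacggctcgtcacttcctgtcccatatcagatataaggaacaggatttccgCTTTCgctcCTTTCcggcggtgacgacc
Rpl10: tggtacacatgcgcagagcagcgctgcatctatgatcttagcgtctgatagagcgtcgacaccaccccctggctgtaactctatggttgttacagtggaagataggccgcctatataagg
Rplp0: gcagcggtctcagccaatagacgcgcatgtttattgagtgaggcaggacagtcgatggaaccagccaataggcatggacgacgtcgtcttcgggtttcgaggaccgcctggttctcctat
Rps21: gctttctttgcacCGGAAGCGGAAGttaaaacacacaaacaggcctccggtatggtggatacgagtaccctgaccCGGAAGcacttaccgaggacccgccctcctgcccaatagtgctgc
A match is a description of the letters only, and the sequences carry no measurement from these sections.

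Section 1 held 3030 spots with at least 500 UMIs and section 2 held 2531, with medians of 18127 and 21555 UMIs per spot. The 1965 barcodes found in both sections are positions of the array and do not mark shared cells. Spots were grouped by lists of anatomical marker genes, and a spot was given to a list when its mean marker score was at least 0.75 and led the next list by at least 0.25. This placed 1977 spots of section 1 and 1707 of section 2, and 1053 and 824 stayed without a group. Tests were run on the 11 groups that reached 30 spots in both sections, and all 61 of their markers were higher inside the group than outside it in both sections, which follows from the rule. The 4 other groups, choroid plexus, midbrain dopamine, brainstem and cerebellum, had from 1 to 192 spots in a section and were left out of the main tests. The striatum group of section 1 stood apart, with 34 spots, a median of 8499.5 UMIs and 12.4% mitochondrially encoded UMIs, against 227 spots, 21762 UMIs and 17.5% in section 2.

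The ribosomal protein genes together took 5.19% of all UMIs in section 1 (95% Wilson interval 5.18 to 5.19%) and 5.09% in section 2 (5.08 to 5.09%). The share was lowest in the thalamus group, at 4.42% (4.40 to 4.44%) in section 1 and 4.41% (4.40 to 4.43%) in section 2. It was highest in the fibre tract group of section 1, at 6.01% (5.98 to 6.04%), and in the ependyma group of section 2, at 5.61% (5.55 to 5.67%). These intervals cover counting error only, and with 2 sections a single share cannot be tested. A share of the UMIs in a spot rises when these messages rise or when others fall, and in spots that mix cell types fewer cells of a type and less RNA per cell cannot be told apart.

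Between those ends, the groups held a like order in both sections. Meninges spots had shares of 5.84% in section 1 and 5.49% in section 2, ependyma spots 5.85% and 5.61%, and hypothalamus spots 5.81% and 5.35%. Dentate gyrus spots, rich in granule neurons, had 5.51% and 5.46%, above the CA pyramidal layer next to them at 4.83% and 4.91%. Striatum spots had 4.90% and 4.68%, where among the 11 tested groups only thalamus was lower in section 2, and thalamus and CA in section 1. From the lowest to the highest of the 11 groups the share differed 1.36-fold in section 1 and 1.27-fold in section 2. The small subunit genes made up 39.6 to 41.1% of the ribosomal protein UMIs of a group in section 1 and 38.7 to 40.4% in section 2, so the balance of the subunits moved far less than the share. Across single spots the shares of large and small subunit genes went together, with Pearson's r of 0.83 over 3030 spots and 0.81 over 2531 spots, a description of spots that share library and depth. The share and the log2 UMIs of a spot had r of -0.03 and -0.24. Median UMIs per spot were low in fibre tract (10379.5 and 13798) and ependyma spots (13013.5 and 14229.5). Over all spots they were 18127 and 21555. Meninges spots, also high in share, had 24402.5 and 18867. The part of depth in the shares was not tested.

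**Figure D1:**
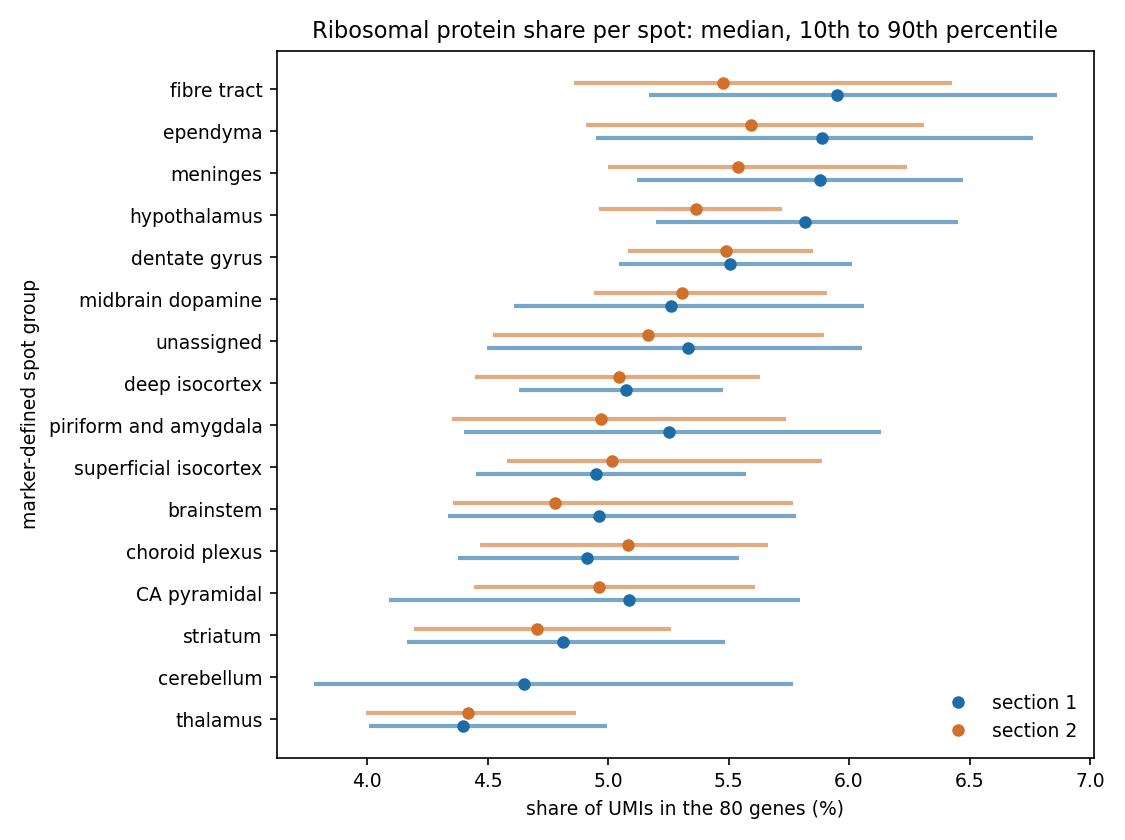
Share of each spot's UMIs taken by the 80 ribosomal protein genes (x axis, percent; it does not start at 0) in each marker-defined spot group with at least 10 spots (y axis). Points are the median over spots and lines run from the 10th to the 90th percentile, blue for section 1 and orange for section 2. Thalamus spots lie lowest in both sections, fibre tract, ependyma and meninges spots highest in section 1, and ependyma and meninges spots highest in section 2, with wide overlap between single spots of different groups.

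Each tested group was then compared with the mean of the other 10 on counts summed per group and section, 22 sums in all, with edgeR's quasi-likelihood test, a term for the section and Benjamini-Hochberg adjustment over 13418 genes. A level is the CPM of a group in a section, its UMIs scaled to a total of 1e6, always section 1 first, and all fold changes are on the log2 scale with their standard error (SE). The comparisons reuse the same sums and are not independent of each other. Over the 11 groups at once, 73 of the 80 genes differed at an adjusted p under 0.05, where 55.3% of all genes tested did.

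In thalamus spots 57 of the 80 genes were lower, 29 of the large and 28 of the small subunit, where 10.6% of all genes tested were lower. The median log2 fold change of the 80 genes was -0.21, against -0.02 for all genes, and 79 of the 80 lay below 0. For 42 genes the thalamus group was the lowest of the 11 groups in both sections. The largest falls were those of Rpl10, Rpl35 and Rpl9, all of the large subunit. These genes were also lower in section 2 than in section 1 over all spots, with uncertain levels, as described further on. Rpl10, a late-joining protein next to the peptidyl transferase centre, stood at 129 and 88.9 CPM in sections 1 and 2. The other groups ran from 87.2 to 285 CPM in section 1 and from 117 to 182 CPM in section 2. The thalamus was therefore the lowest group in section 2, while in section 1 the 34 striatum spots were lower still. The log2 fold change was -0.60 (SE 0.0931, adjusted p = 1.04e-05), a 1.51-fold lower level. Rpl35, a protein at the mouth of the exit tunnel, stood at 228 and 109 CPM, below the 276 to 404 CPM and 128 to 184 CPM of all other groups. Its log2 fold change was -0.50 (SE 0.0833, adjusted p = 2.42e-05). Rpl9 stood at 298 and 198 CPM, where the other groups ran from 251 to 515 and from 228 to 348 CPM. It fell by 0.49 on the log2 scale (SE 0.0922, adjusted p = 0.000152). The count depends on both thalamus sums: without the section 1 sum it was 15 genes, and without the section 2 sum 29. The neuron marker list was higher in thalamus spots than in all spots, with 4 of 5 genes higher in both sections and sums of 4178 and 3745 CPM against 3724 and 3224 CPM. All 5 microglia markers (380 and 351 CPM against 417 and 391 CPM) and all 5 red blood cell markers (642 and 793 CPM against 1444 and 1426 CPM) were lower in both sections. Neither fall was particular to the thalamus. All 5 microglia markers were also lower in deep isocortex (344 and 338 CPM) and in CA spots (363 and 334 CPM). All 5 red blood cell markers were also lower in the isocortex, piriform and amygdala, CA, dentate gyrus, striatum and hypothalamus groups. The part of cell type content in the lower levels was not tested.

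In fibre tract spots, defined by myelin genes of oligodendrocytes, 61 of the 80 genes were higher, 33 of the large and 28 of the small subunit, where 15.7% of all genes tested were higher. Their median log2 fold change was 0.26, against 0.00 for all genes, and 79 of the 80 lay above 0. The largest rises were those of Rps12, Rps3 and Rpl28. Rps12, a protein of the beak of the small subunit, stood at 933 and 701 CPM. All other groups lay at 500 to 821 CPM and at 458 to 630 CPM, so the fibre tract did not overlap them in either section. The log2 fold change was 0.60 (SE 0.0758, adjusted p = 2.56e-07), a 1.51-fold higher level. Rps3, which lies where messenger RNA enters the small subunit, stood at 831 and 704 CPM, above the 473 to 805 and 458 to 649 CPM of the others, with a log2 fold change of 0.58 (SE 0.0621, adjusted p = 8.49e-09). Rpl28, a protein of the surface of the large subunit, stood at 970 and 995 CPM against 624 to 891 and 700 to 821 CPM, a log2 fold change of 0.55 (SE 0.0625, adjusted p = 2.87e-08). Rps9, Rpsa and Rpl13a had changes of 0.51, 0.51 and 0.52. A single member was lower, 1 of 80 where 12.1% of all genes were lower: Rpl22l1, described further on.

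The number of higher genes in fibre tract spots moved with the scaling and with 1 sum. Without TMM factors, which scale each sum by the bulk of its genes, 35 genes were higher, the median was 0.14 and 71 genes lay above 0. Without the fibre tract sum of section 1, 23 genes were higher. Markers of other cell types also moved with this group. All 5 neuron markers were lower than in all spots in both sections, with sums of 2324 and 2322 CPM against 3724 and 3224 CPM. All 5 microglia markers were higher in both sections (657 and 572 CPM against 417 and 391 CPM), as were 3 of 4 oligodendrocyte precursor markers (338 and 497 CPM against 178 and 253 CPM). Of the astrocyte and endothelium markers 4 of 5 each were higher, and all 5 red blood cell markers were. None of these markers was at 0, and their part in the higher levels was not tested. Fibre tract spots were also shallow, with medians of 10379.5 and 13798 UMIs, and the part of depth was not tested either.

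In meninges spots, defined by fibroblast genes, 32 of the 80 genes were higher, 15 of the large and 17 of the small subunit, where 13.7% of all genes tested were higher and 8.84% lower. The median log2 fold change was 0.17. Rpl10, the gene with the largest fall in the thalamus, had the largest rise here. It stood at 285 and 182 CPM, above the 87.2 to 218 and 88.9 to 157 CPM of all other groups. Its log2 fold change was 0.60 (SE 0.0905, adjusted p = 7.48e-06). Rps27, a zinc-binding protein of the small subunit, stood at 619 and 546 CPM, above the 305 to 504 and 304 to 533 CPM of the others, a log2 fold change of 0.49 (SE 0.0743, adjusted p = 6.76e-06). Rplp0, the base of the stalk that recruits elongation factors, stood at 429 and 375 CPM with a log2 fold change of 0.42 (SE 0.0681, adjusted p = 1.92e-05). In section 1 no group was above the meninges for Rplp0, and in section 2 the fibre tract and ependyma groups were. The count was 1 gene without the meninges sum of section 1 and 21 without the deep isocortex sum of section 1. All 5 red blood cell markers were higher than in all spots in both sections, with sums of 9703 and 12316 CPM against 1444 and 1426 CPM. All 5 mural cell markers were higher too, with 1270 and 964 CPM against 314 and 240 CPM. All 5 astrocyte markers (1102 and 1001 CPM against 639 and 584 CPM), all 5 microglia markers and all 5 endothelium markers were higher in both sections, and all 5 neuron markers were lower (2398 and 2730 CPM against 3724 and 3224 CPM). The part of these cells in the results was not tested.

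**Figure D2:**
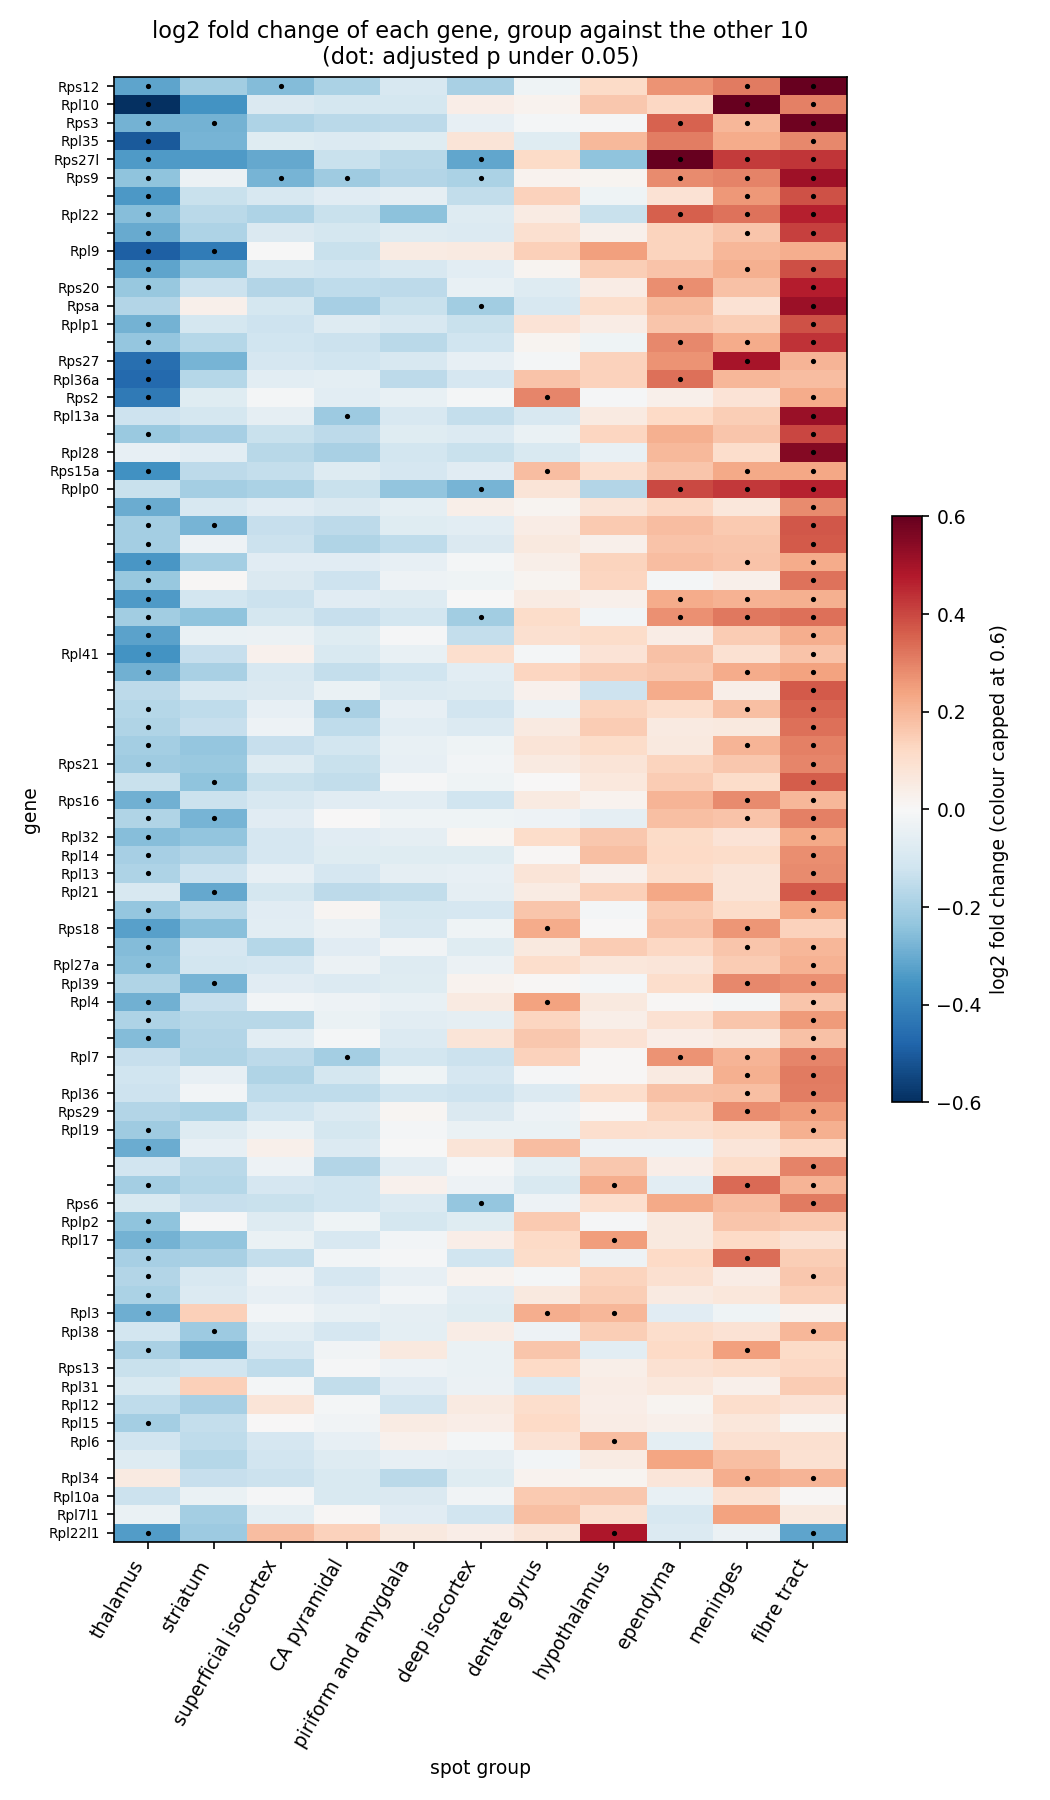
log2 fold change of each of the 80 genes (rows) in each spot group against the mean of the other 10 (columns, ordered by the median). Red is higher, blue is lower, colours are capped at 0.6, and a dot marks an adjusted p under 0.05 (edgeR's quasi-likelihood test), with names given for genes described in the text. The thalamus column lies below 0 in 79 rows and the fibre tract column above 0 in 79 rows, with Rpl22l1 in the last row the exception in the fibre tract.

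The ependyma group, ciliated cells that line the ventricles, had 11 genes higher, where 5.90% of all genes tested were higher and 2.68% lower, with 34 and 38 spots. Rps27l, the paralog of Rps27, had the largest change of any member in any tested group. It stood at 101 and 91.0 CPM. All other tested groups lay at 43.6 to 82.0 CPM and 40.2 to 63.8 CPM, with no overlap. The log2 fold change was 0.87 (SE 0.151, adjusted p = 0.000158), a 1.83-fold higher level from 45 and 55 UMIs. Rplp0 stood at 395 and 419 CPM, where the highest other groups had 429 and 393 CPM. Its log2 fold change was 0.40 (SE 0.0864, adjusted p = 0.00229). Rpl22 stood at 320 and 280 CPM, where the highest other groups had 341 and 268 CPM. Its log2 fold change was 0.36 (SE 0.103, adjusted p = 0.0239). Leaving out the ependyma sum gave 2 genes (section 1) or 4 (section 2), without the deep isocortex sums of section 1 and 2 it was 5 and 7, and without the striatum sum of section 2 it was 17. All 5 neuron markers were lower in ependyma spots than in all spots in both sections, with sums of 2539 and 2615 CPM against 3724 and 3224 CPM. Of the microglia markers 4 of 5 were higher (629 and 462 CPM against 417 and 391 CPM), as were 4 of 5 endothelium and 3 of 4 oligodendrocyte precursor markers. Red blood cell markers summed to 956 CPM in section 1 and 4455 CPM in section 2, and the mural marker Kcnj8 was at 0 in section 1. The part of these cells was not tested.

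In hypothalamus spots 5 genes were higher, where 5.76% of all genes tested were higher and 4.13% lower, so their number is near the background. Among them Rpl22l1, the paralog of Rpl22, stood at 402 and 310 CPM. The other tested groups lay at 164 to 292 CPM in section 1, below it. In section 2 they reached 308 CPM in superficial isocortex, which left hardly any gap. The log2 fold change was 0.48 (SE 0.0882, adjusted p = 0.000306). Rpl17, a protein at the exit tunnel, stood at 844 and 689 CPM, above the 543 to 746 and 500 to 671 CPM of the others, with a log2 fold change of 0.25 (SE 0.0634, adjusted p = 0.00831). Of the neuron markers 3 of 5 were lower and 2 higher in both sections (sums of 3236 and 3030 CPM against 3724 and 3224 CPM). Of the microglia and mural cell markers 4 of 5 each were lower and 1 higher. All 5 endothelium markers (209 and 187 CPM against 227 and 200 CPM) and all 5 red blood cell markers (833 and 873 CPM against 1444 and 1426 CPM) were lower in both sections. The part of these cells was not tested. No gene passed without the hypothalamus sum of section 1, 9 did without the striatum sum of section 2, and 3 did without any 1 of the deep isocortex, dentate gyrus or thalamus sums of section 1, or of the dentate gyrus or piriform and amygdala sums of section 2.

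In dentate gyrus spots 5 genes were higher, where 9.88% of all genes tested were higher and 8.47% lower. Rps2, near the entry of the messenger RNA channel, stood at 434 and 416 CPM, above all other groups, which reached 401 and 351 CPM. Its log2 fold change was 0.29 (SE 0.0655, adjusted p = 0.00152). Rpl4, which lines the exit tunnel, stood at 1038 and 1002 CPM, above the highest other groups at 948 and 899 CPM, with a log2 fold change of 0.24 (SE 0.0606, adjusted p = 0.0045). Rps18 stood at 328 and 306 CPM, where the highest other groups had 329 and 297 CPM, so it was not the highest in section 1. Its change was 0.22 (SE 0.0665, adjusted p = 0.0184). Leaving out the dentate gyrus sum gave 1 gene (section 1) or none (section 2), and the count was 9 without the striatum sum of section 2. Compared with all spots, 4 of 5 neuron markers were lower in dentate gyrus spots in both sections (sums of 3082 and 2813 CPM against 3724 and 3224 CPM), as were 4 of 5 astrocyte, 4 of 4 oligodendrocyte precursor and 5 of 5 red blood cell markers, and their part was not tested. Set directly against the CA pyramidal layer, 2 genes were higher in the dentate gyrus, where 2.77% of all genes tested were higher and 2.74% lower, and the median of the 80 genes was 0.13. These were Rps2, at 434 and 416 CPM against 327 and 332 CPM (log2 fold change 0.33, SE 0.0897, adjusted p = 0.0262), and Rpl7, at 565 and 543 CPM against 446 and 422 CPM (0.31, SE 0.0862, adjusted p = 0.0247). No gene passed when any 1 of the 4 sums of that pair was left out, and 5 passed without the striatum sum of section 2.

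In striatum spots 8 genes were lower, where 2.24% of all genes tested were lower and 4.34% higher, and the median was -0.16. Rpl9 stood at 251 and 228 CPM, the lowest of all groups in section 1 and above the thalamus alone in section 2, with a log2 fold change of -0.42 (SE 0.108, adjusted p = 0.013). Rpl21 stood at 1108 and 756 CPM and Rps3 at 494 and 460 CPM, with changes of -0.31 and -0.28. The lowest other groups had 995 and 895 CPM for Rpl21 and 473 and 458 CPM for Rps3. Without the small striatum sum of section 1, which stood apart in depth, 1 gene was lower, and without 1 of 5 other sums 5 were: superficial isocortex of section 2, deep isocortex of section 1 or 2, fibre tract of section 1, or ependyma of section 2. Leaving that same sum out gave 59 lower genes in the thalamus, 58 higher in the fibre tract and 26 higher in the meninges. In striatum spots 4 of 5 neuron markers (2882 and 2816 CPM) and all 5 astrocyte markers (472 and 456 CPM against 639 and 584 CPM) were lower than in all spots in both sections, and their part was not tested. In deep isocortex 6 genes were lower, where 8.27% of all genes tested were lower and 9.72% higher. Rps27l stood there at 47.7 and 43.5 CPM (log2 fold change -0.31), where the lowest other groups had 43.6 and 40.2 CPM. Rplp0 stood at 255 and 274 CPM (-0.28), with 262 and 269 CPM in the lowest others. Rps6, the small subunit protein phosphorylated under mTOR signalling, stood in deep isocortex at 429 and 372 CPM (-0.23). Its lowest other groups had 382 and 396 CPM. All 5 neuron markers were higher there than in all spots in both sections (4668 and 4111 CPM against 3724 and 3224 CPM) and all 5 astrocyte markers lower (415 and 412 CPM), with their part not tested. Without the deep isocortex sums of section 1 or 2 the count was 0 or 1, and without the fibre tract sum of section 1 it was 3. In the CA pyramidal layer 4 were lower, where 5.04% of all genes were lower and 7.68% higher. Among them Rpl13a stood at 1094 and 1182 CPM (-0.22), with 1093 and 1217 CPM in the lowest other groups. Rps9 stood at 484 and 472 CPM (-0.21) against 452 and 460 CPM in those. Rpl7 stood at 446 and 422 CPM (-0.21) against 457 and 412 CPM. None was lower there without either CA sum, either deep isocortex sum, the superficial isocortex sum of section 2 or the fibre tract sum of section 1, 1 was without the dentate gyrus sum of section 2, and 7 were without the striatum sum of section 2. In superficial isocortex Rps9 was lower at 468 and 466 CPM (-0.28), with 452 and 460 CPM in the lowest other groups. Rps12 was lower at 518 and 522 CPM (-0.26), with 500 and 458 CPM in the lowest others. These were 2 of the 80 genes, where 4.85% of all genes were lower and 7.57% higher. That count was 0 without the superficial isocortex sum of section 1 and 1 without any of 10 other sums: superficial isocortex, deep isocortex, CA, dentate gyrus or striatum of section 2, thalamus of section 1 or 2, or fibre tract, ependyma or meninges of section 1. In piriform and amygdala spots no gene passed in edgeR's quasi-likelihood test or in DESeq2, where 0.238% of all genes tested were higher and 0.00745% lower, and 8 of the 80 had an unadjusted p under 0.05.

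Members that left the common course of the genes were sought by a second fit, in which the library size of each sum was its total of ribosomal protein UMIs. Over all 11 groups 19 of the 80 genes differed in this fit, where 67.3% of all genes tested did. The SD over groups of a gene's log2 share of that total had a median of 0.08, and 26 of the 80 genes had an SD over 0.1. The 8 genes with the largest SD were Rpl22l1, Rps27l, Rpl10, Rpl7l1, Rplp0, Rpl9, Rpl3 and Rps27, from 0.27 down to 0.15. The counts by group are read against the shares of all 13418 genes on this scale, where the 80 genes themselves set the zero. In striatum 2 were higher, where 6.46% of all genes were higher and 0.991% lower, and in dentate gyrus 2 were higher (7.81% and 9.50%). In ependyma 3 were higher (5.08% and 7.18%), in meninges 4 were higher and 1 lower (10.2% and 21.3%), and in hypothalamus 1 was higher and 2 lower (3.80% and 5.87%). In superficial isocortex 1 was higher (10.9% and 2.97%) and in deep isocortex 1 was lower (11.7% and 5.78%). Each of these counts fell to 0 without 1 sum: the group's own section 1 sum, or in ependyma the section 2 sum. In the CA layer, in piriform and amygdala, and for dentate gyrus against CA, edgeR's quasi-likelihood test called none, and DESeq2 was not run on this scale. At an unadjusted p under 0.05 there were 1, 1 and 0 genes in these. Of all genes, 12.2%, 0.484% and 1.77% were higher there and 2.76%, 0.00745% and 6.12% lower.

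Rpl22l1 had the widest course, with an SD of 0.27. It made up 0.69% and 0.58% of the ribosomal protein UMIs in hypothalamus spots of sections 1 and 2, and 0.31% and 0.36% in fibre tract spots. The fibre tract was the lowest of the 11 groups in both sections, while the hypothalamus was the highest in section 1 and second to superficial isocortex, at 0.61%, in section 2. Relative to the total of the 80 genes it was lower in fibre tract spots by a log2 fold change of -0.59 (SE 0.0988, adjusted p = 1.44e-05), higher in hypothalamus spots by 0.41 (SE 0.0892, adjusted p = 0.00233), and higher in superficial isocortex by 0.28 (SE 0.0976, adjusted p = 0.0484). Its level too was lower in the fibre tract, at 184 and 201 CPM, a log2 fold change of -0.31 (SE 0.0968, adjusted p = 0.0139), which did not pass without the fibre tract sum of section 1. The other groups ran from 164 to 402 CPM in section 1 and from 183 to 310 CPM in section 2. Unlike the share, the level in the fibre tract was therefore not the lowest in either section. The call in hypothalamus did not pass without the hypothalamus sum of section 1. The call in superficial isocortex was lost when any 1 of 12 of the 22 sums was left out.

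The 3 paralog pairs were also compared as ratios of UMIs. There were 1.59 and 1.58 UMIs of Rpl22l1 for each UMI of Rpl22 in hypothalamus spots, and 0.54 and 0.79 in fibre tract spots. The median over the 11 groups was 1.15 in section 1 and 1.09 in section 2, and the hypothalamus was the highest in both sections. For Rps27l over Rps27 the ratio was 0.205 and 0.171 in ependyma spots, the highest of the 11 groups in both sections, and 0.0968 and 0.101 in hypothalamus spots, the lowest in both, though meninges spots of section 2 were also at 0.101. The median was 0.132 and 0.119. For Rpl7l1 over Rpl7 the median was 0.0934 and 0.0929, with a range of 0.0370 to 0.102 in section 1 and 0.0648 to 0.111 in section 2. A ratio of UMIs compares the groups with each other and not the abundance of the proteins. In choroid plexus spots, which were too few in section 1 for the main test (29 spots), Rps27l stood higher still, at 131 and 106 CPM, with a ratio to Rps27 of 0.304 and 0.236. In a fit that took in groups with at least 20 spots, chosen after seeing the data, 5 of the 80 genes were higher in choroid plexus, where 8.56% of all genes tested were higher. In midbrain dopamine spots, the other group this fit added, edgeR's quasi-likelihood test called none of the 80, where 3.16% of all genes were higher and 1.99% lower, and 0 of the 80 had an unadjusted p under 0.05. DESeq2 was not run with these groups. In choroid plexus Rps27l led with a log2 fold change of 1.19 (SE 0.125, adjusted p = 2.71e-09), followed by Rpl41 at 0.46 and Rps15a at 0.40.

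**Figure D3:**
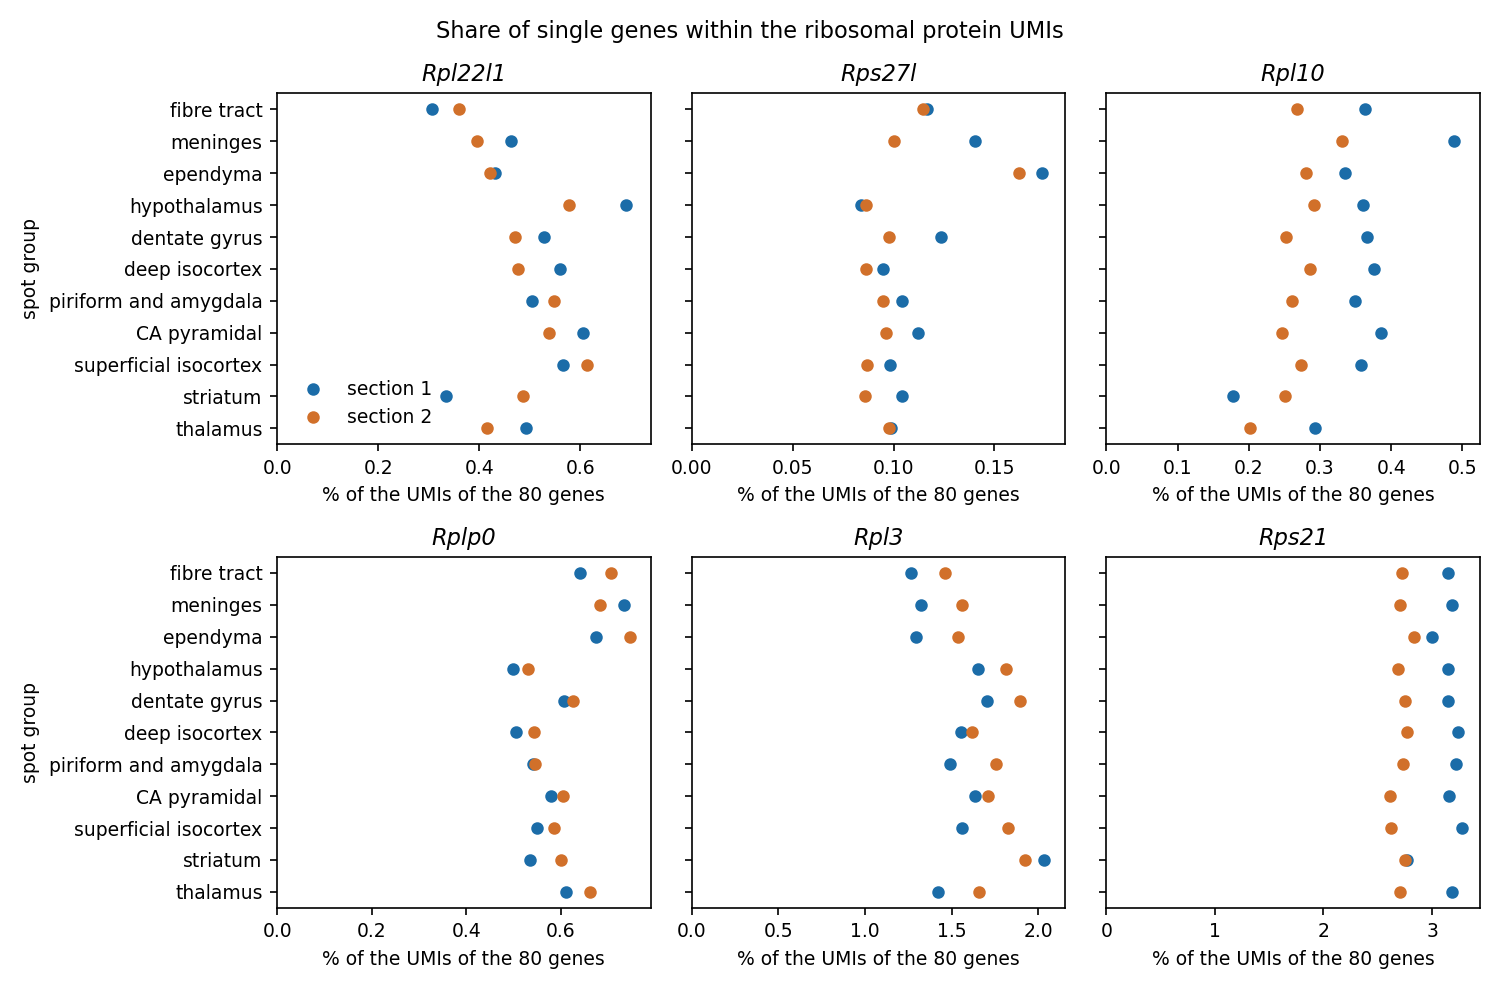
Share of 6 genes in the ribosomal protein UMIs of each tested spot group (x axes, percent of the UMIs of the 80 genes; scales differ between panels and start at 0), section 1 in blue and section 2 in orange. Groups are ordered as in the plot of fold changes, from thalamus at the bottom to fibre tract at the top. Rpl22l1 is lowest in the fibre tract, Rps27l highest in the ependyma, Rpl10 highest in the meninges, and Rps21 is nearly level within each section apart from the low striatum of section 1.

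Rps27l relative to the total of the 80 genes was higher in ependyma spots by 0.74 (SE 0.152, adjusted p = 0.00103), lost without the ependyma sum of section 2, and lower in hypothalamus spots by -0.30 (SE 0.0983, adjusted p = 0.0452), lost in 17 of the 22 fits that left out 1 sum. Rpl10 made up 0.49% and 0.33% of the total in meninges spots and 0.29% and 0.20% in thalamus spots. Its changes relative to the total were 0.44 (SE 0.0936, adjusted p = 0.000582) and -0.37 (SE 0.0953, adjusted p = 0.00255), each lost without 1 sum of the group itself. Rps27 was higher relative to the total in meninges spots by 0.34 and lower in thalamus spots by -0.23. Rplp0 had shares of 0.73% and 0.68% in meninges spots, 0.67% and 0.75% in ependyma spots and 0.64% and 0.71% in fibre tract spots, the 3 highest groups in both sections, and its lowest in hypothalamus spots (0.50% and 0.53%). It was called in 5 groups in this fit: higher in meninges (0.27), ependyma (0.26) and fibre tract (0.18), and lower in hypothalamus (-0.25) and deep isocortex (-0.22).

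Rpl3, which reaches towards the peptidyl transferase centre, had its highest share in the striatum, at 2.03% and 1.92%, and its lowest in the fibre tract, at 1.26% and 1.46%. Relative to the total it was higher in striatum spots by 0.30 (SE 0.0715, adjusted p = 0.00491), with Rpl31 at 0.31, and lower in the fibre tract by -0.27 and in meninges by -0.18. Both striatum calls were lost without the striatum sum of section 1. In the fibre tract 8 genes were higher than the total, where 8.16% of all genes tested were, and 8 were lower, where 37.7% were. The higher ones were Rps12, Rps3, Rpl28, Rpl13a, Rps9, Rpsa, Rps20 and Rplp0, from 0.31 to 0.18, of which 5 belong to the small subunit. The lower ones were Rpl22l1, Rpl10a, Rpl15, Rpl3, Rpl12, Rpl17, Rpl6 and Rps13, from -0.59 to -0.16, of which 7 belong to the large subunit. This count of 16 was 5 (section 1) or 7 (section 2) when the fibre tract sum of 1 section was left out. In thalamus spots Rpl34 and Rpl28 were higher than the total by 0.27 and 0.17, where 31.4% of all genes were higher, and Rpl10, Rpl35, Rpl9, Rpl36a, Rps27 and Rps2 were lower, where 4.39% were. That count of 8 was 1 without either thalamus sum. In the dentate gyrus Rps2 and Rpl4 were higher by 0.25 and 0.20.

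Rpl7l1 was the exception among the genes with a large SD. Its SD of 0.22 came with a correlation of -0.02 between the sections over the 11 groups, and it was called in no group in edgeR's quasi-likelihood test, with an adjusted p over all groups of 0.452. At 18.2 CPM in the striatum of section 1 and 40.4 CPM in that of section 2, its low value rested on the shallow sum. The other members with a large SD held their order better, with correlations of 0.90 for Rplp0, 0.89 for Rpl3, 0.85 for Rps27l, 0.69 for Rpl22l1, 0.52 for Rpl10, 0.46 for Rps27 and 0.39 for Rpl9. The median over all 80 genes was 0.51, so Rpl10, Rps27 and Rpl9 were near or below the typical member.

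The 5 most even genes were Rps21, Rpl13, Rpl14, Rpl27a and Rpl19, with SDs of 0.03 to 0.04. Rps21 ran from 1356 to 1894 CPM over the groups of section 1 and from 1193 to 1589 CPM in section 2, while its share of the ribosomal protein UMIs was 2.77 to 3.27% and 2.62 to 2.83%. Its adjusted p over all groups was 0.997 relative to the total of the 80 genes. A p that misses the threshold does not show that the share was equal. The genes with the highest UMI shares were Rplp1, Rps21, Rpl38, Rps29 and Rpl41, not adjusted for length, with 0.78% of all UMIs between them in section 1 and 0.75% in section 2.

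Patterns over the 11 groups were compared by Pearson's r of the log2 CPM, averaged over sections, as a description of points that share sections and depth. Other ribosomal protein genes were among the closest to Rpl10 (Rpl39, r = 0.97, and Rps27, r = 0.95), to Rps27 (Rpl10, 0.95, and Rps16, 0.94) and to Rpl9 (Rpl32, 0.95, and Rpl17, 0.94). For Rpl22l1 and Rps27l the 5 closest were other genes: Stx16, Snu13, Tbca, Rwdd2a and Rab27b for Rpl22l1, with r of 0.91 to 0.93, and Rab29, Mdm4, Glod4, Nuf2 and Ccdc9b for Rps27l, with r of 0.94 to 0.95.

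Other genes of translation were taken from lists. Of the ribosomal proteins under other names, Fau, a fusion with the small subunit protein Rps30, was higher in the fibre tract and lower in the thalamus. It stood at 1150 and 1073 CPM in fibre tract spots and 817 and 830 CPM in thalamus spots. The log2 fold changes were 0.31 (SE 0.0616, adjusted p = 0.000216) and -0.24 (SE 0.0641, adjusted p = 0.00577). Of 15 further translation genes of the TOP class, 7 were higher in the fibre tract, with a median of 0.12, and 4 were lower in the thalamus, with a median of -0.12. Of all genes tested, 15.7% were higher in the fibre tract and 10.6% lower in the thalamus. Tpt1 stood at 1398 and 1301 CPM in the fibre tract (log2 fold change 0.71), the elongation factor gene Eef1d at 173 and 203 CPM (0.68) and Eef1b2 at 296 and 252 CPM (0.32). Eef1a1, the main elongation factor, was lower in the thalamus, at 1823 and 1869 CPM (-0.25), and higher in the dentate gyrus, at 2758 and 2627 CPM (0.26). In the dentate gyrus 2 of the 15 were higher and 1 was lower, the lower one Eef1d (-0.27). Of all genes tested, 9.88% were higher there and 8.47% lower. In the meninges 3 of the 15 were higher, where 13.7% of all genes tested were. Pabpc1, the poly(A) binding protein gene, led them at 151 and 136 CPM (0.57).

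Genes that build ribosomes and genes of mitochondria were listed for comparison. Of 15 ribosome biogenesis genes, 4 were lower in the fibre tract and 1 was higher, with a median of -0.13. Of all genes tested, 12.1% were lower there and 15.7% higher. Nop58 stood in the fibre tract at 13.9 and 16.5 CPM (log2 fold change -0.47). In the dentate gyrus 2 of the 15 were higher: Bop1 at 65.1 and 83.6 CPM (0.41) and Ubtf, a factor of ribosomal DNA transcription, at 115 and 130 CPM (0.30). Of all genes tested, 9.88% were higher there. Ubtf was also higher in superficial isocortex, by a like 0.30. The 78 mitochondrial ribosomal protein genes, which serve a different ribosome, had medians of -0.09 in the fibre tract, with 4 higher and 2 lower, and 0.02 in the thalamus, with 2 higher and 4 lower. Of all genes tested, 15.7% were higher and 12.1% lower in the fibre tract, and 11.9% and 10.6% in the thalamus. In meninges spots 5 of the 78 were lower, where 8.84% of all genes tested were, and the median was -0.06. Of 36 nuclear genes for subunits of respiratory complex I, 12 were higher in the thalamus, where 11.9% of all genes tested were higher, with a median of 0.15, led by Ndufa10 (0.61), Ndufs3 (0.28) and Ndufa4 (0.25), and 2 were lower and 1 higher in the fibre tract. These lists are described by their counts alone, with no test of a list.

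Between the sections most of the 80 genes had like levels, and a few differed. The median log2 ratio of section 2 over section 1 was -0.06, and 72 of the 80 genes lay within 0.25 of 0. Rpl35 stood at 320 CPM in the first and 154 CPM in the other, a 2.08-fold difference, and was lower in section 2 in all 11 groups. Rpl9 stood at 414 and 276 CPM, also lower in all 11, and Rpl10 at 185 and 134 CPM, lower in 10. In the other direction Rpl13 stood at 805 and 1223 CPM, Rplp2 at 260 and 339 CPM, Rpl36 at 636 and 799 CPM and Rpl41 at 1223 and 1465 CPM, each higher in section 2 in all 11 groups. With 1 section on each side these differences have no replicate check. The file headers name a different Space Ranger version for each section, 1.2.2 and 2.0.1, so section and version cannot be told apart. Ribosomal protein genes have many near-identical pseudogene copies, and reads that match several places can be assigned differently, so levels of single members are uncertain for that reason too. The 5 pseudogenes whose symbols carry the family name and -ps held 5189 UMIs, 0.0882% of those of the 80 genes, with 2637 of them in Rpl9-ps6. Pseudogenes listed under other names were not counted, so this share does not measure all such copies.

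**Figure D4:**
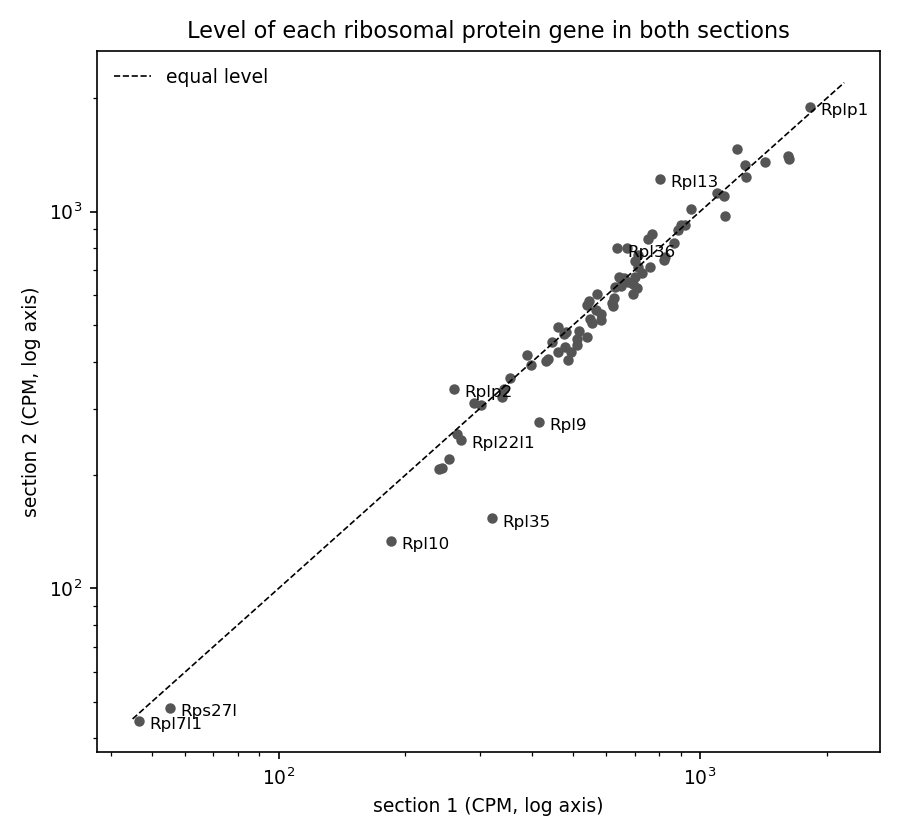
Level of each of the 80 ribosomal protein genes in section 1 (x axis) and section 2 (y axis), in CPM over all spots with at least 500 UMIs, both axes logarithmic. Each point is 1 gene and the dashed line marks equal levels. Rpl35, Rpl9 and Rpl10 lie below the line and Rpl13, Rplp2 and Rpl36 above it.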

How the data were processed

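Each of the 2 sections came as a matrix of UMI counts per gene and spot, deposited by the authors. The counts were made with Space Ranger on mm10, per the file headers and the submitters' processing notes (2.0.1 in the notes; 1.2.2 and 2.0.1 in the headers), with the release of the gene annotation not given in the sources used here. Spots with under 500 UMIs were left out (137 and 2). Marker scores are means of z scores (capped at 5) of log counts per 10000 UMIs, and groups needed 30 spots in each section. Spot counts were summed per group and section and tested with edgeR 4.0.16 in R 4.3.3 (quasi-likelihood, TMM, filterByExpr, section as a block), over 22 sums of 275175 to 8006446 UMIs, with Benjamini-Hochberg adjustment at 0.05. A second fit used the total of the 80 genes as library size. The block is the section, since all sums with 1 replicate number come from the same section. Alternatives were DESeq2 1.42.0, no TMM, no filter, no block, a stricter marker rule (scores of 1, lead of 0.5), spots of at least 2000 UMIs, no mitochondrial genes, groups of at least 20 spots and leaving out each sum. Scripts were tested on simulated data.

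The members and lists were chosen with earlier results of these data known. The genes named are the 8 with the largest and 5 with the smallest SD of the log2 ratio to the total, the 5 with the highest and lowest UMI shares, paralogs ending in l or l1, up to 3 called rises and falls per comparison with the same sign in both sections, up to 3 called genes per list and comparison, and the 5 closest patterns per outlier. The other genes called against the total, and those that differed between sections, were named after their values were seen. Some results that these rules select are not reported here.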

Additional observations from a re-analysis of the deposited data

How the results depend on the processing

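With 2 sections and 1 sum per group and section, most counts of ribosomal protein genes past the threshold were sensitive to the fit. For the changed counts given here, the share of all genes called was not determined. Whether such a change was particular to the 80 genes is therefore not known. No median of the 80 genes changed sign without TMM factors, with DESeq2 or without mitochondrial genes. With DESeq2, 7 genes were lower in superficial isocortex and 11 in the CA layer, and 19 were higher in ependyma and 6 in dentate gyrus against CA. Without TMM factors the counts higher were 5 for dentate gyrus against CA, 17 in ependyma, 35 in fibre tract, 14 in hypothalamus and 15 in dentate gyrus, and 1 was lower in superficial isocortex. Without the filter on low counts 37 were lower in thalamus, 2 in deep isocortex and 0 in CA, and 3 were higher in ependyma, 18 in meninges and 0 for dentate gyrus against CA. Relative to the total of the 80 genes, that setting called 0 in deep isocortex, 1 in CA, 3 in meninges and 1 in ependyma. Without the replicate block 18 were lower in thalamus, 34 higher and 0 lower in fibre tract, 11 higher in meninges, 3 in ependyma, 1 in hypothalamus and 1 in dentate gyrus. No gene (0) was then called in deep isocortex, superficial isocortex, striatum, CA or dentate gyrus against CA, and 38 differed over all groups. Relative to the total, no replicate block left 0 in superficial isocortex, deep isocortex, dentate gyrus and hypothalamus, 1 in striatum, thalamus and ependyma, 7 in fibre tract, 2 in meninges and 3 over all groups. With the stricter marker rule 25 were lower in CA, 3 lower and 4 higher in hypothalamus (0 lower and 5 higher in the main setting) and 6 higher in dentate gyrus against CA, and relative to the total 8 were called in meninges and 1 in CA. The log2 share against all spots became -0.0665 in piriform and amygdala, 0.00419 in brainstem and 0.19 in ependyma. Superficial isocortex, piriform and amygdala, striatum and ependyma had too few spots for that test. Apart from the direct pair, each remaining group was therefore compared with the mean of fewer others than in the main setting. The changed counts cannot be assigned to the marker rule alone. With groups of at least 20 spots, chosen after seeing the data, 20 were higher in meninges, and 3 were higher and 1 lower in hypothalamus. In that fit choroid plexus and midbrain dopamine also joined the groups that each group was compared with. Without mitochondrial genes the log2 share was -0.0458 in brainstem, 0.0807 in dentate gyrus and -0.0521 in deep isocortex. Leaving out 1 sum at a time gave 0 to 2 lower in superficial isocortex, 0 to 6 in deep isocortex, 0 to 7 in CA, 1 to 12 in striatum and 15 to 59 in thalamus. It gave 0 to 9 higher in dentate gyrus and in hypothalamus, 23 to 62 higher and 0 to 1 lower in fibre tract, 2 to 17 in ependyma, 1 to 44 in meninges, 0 to 5 for dentate gyrus against CA, and 63 to 75 over all groups. Relative to the total the ranges were 0 to 2 in both isocortex groups, 0 to 1 in CA, 0 to 3 in dentate gyrus, striatum and hypothalamus, 1 to 10 in thalamus, 5 to 20 in fibre tract, 0 to 4 in ependyma, 0 to 7 in meninges and 13 to 25 over all groups. The cause of these changes was not tested. Where a group's own sum was left out, its other sum was taken to vary like the other groups.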
